A study of Homo sapiens with 33 samples.

Results

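HEK293T cells that expressed the dual base editor SpACE with the HEKsite2 guide were compared with HEK293T cells that expressed GFP alone. The members are the 3 libraries of each group, chosen by construct and guide, so 6 of the 33 libraries of the series carry the comparison, and every one of the 14613 genes with enough counts was tested. A base editor joins a Cas9 nickase (nCas9), which a guide RNA brings to a chosen DNA site, to an enzyme that deaminates a base there. SpACE carries an adenine deaminase and a cytosine deaminase on 1 nickase and so edits both bases. Deaminases of this kind can also act on RNA, and the deaminated cytosine in DNA, a uracil, is a substrate of base excision repair. Cells meet large amounts of foreign or misfolded protein with the heat shock response, in which the factor HSF1 induces chaperones, and meet several kinds of stress with the integrated stress response, in which phosphorylation of eIF2α slows most translation and favours the factor ATF4.

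HEK293T is a human embryonic kidney line that carries the SV40 large T antigen. The SpACE cells had received a plasmid for the editor joined to EGFP through a P2A peptide and a plasmid for the guide to HEKsite2. The GFP cells had received GFP and are labelled with no guide, although the sample records list the same amounts of editor and guide plasmid for every library. Both groups were sorted for GFP 36 to 40 h after transfection, and total RNA was sequenced with a stranded kit. By its labels the GFP group lacks the nickase, the guide and both deaminases, so the parts these play in a difference from GFP cannot be told apart in this comparison. Libraries with nCas9 and the same guide, and libraries with SpACE and a guide to the gene RNF2, are given beside it. The labels do not say whether the 3 libraries of a group came from separate cultures. The p-values set a difference of means against the spread between libraries of the same group, estimated over all 33 libraries. That spread may be technical. In the count table the names of the SpACE columns also contain the abbreviation UGI, which is absent from the sample labels, so it is not known here whether the construct included an inhibitor of uracil glycosylase.

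The SpACE libraries held 8690271 to 9248089 counts and the GFP libraries 9681156 to 11200406. Levels below are CPM, a library's counts scaled to a common total, in the order of replicates 1, 2 and 3. Fold changes are on the log2 scale, SpACE over GFP, with their standard error (SE), from edgeR's quasi-likelihood test over all 33 libraries, and p-values are Benjamini-Hochberg adjusted over all genes tested. A gene with an adjusted p under 0.05 is called. Markers set out for HEK293 cells were present, with 11245 counts of VIM and 5889 of LIN28B summed over the GFP libraries and 9248 and 3753 over the SpACE libraries, although PAX2 had 10 and 7. LIN28B was called lower (-0.50), and VIM, CDH2, KRT8 and KRT18 were not called. The 12 liver markers summed to between 4 and 10 counts in a GFP library and between 11 and 25 in a SpACE library, with AFP and FGA at 0 in both groups. The 11 blood markers summed to between 20 and 24 and between 14 and 31, with HBA2, HBG1 and CD3E at 0. The liver gene TF, with 6 and 30 counts, and the blood gene CD14, with 21 and 40, were called higher in SpACE, the latter not without SpACE library 1 or 2 or GFP library 1 or 2 (adjusted p 0.0857 to 0.288). The 12 mesenchymal markers summed to between 927 and 1180 counts in GFP and between 725 and 842 in SpACE. The part these traces play in any result was not tested.

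The expression of 5350 of the 14613 tested genes (36.6%) differed between SpACE and GFP. SpACE was higher at 2697 genes (18.5%) and lower at 2653 (18.2%). Most differences were small: 323 genes (2.21%) were called and at least 2-fold higher, and 72 (0.493%) were called and at least 2-fold lower. The plot of all tested genes shows both the many small differences and the few large ones. With 1 of the 6 libraries left out in turn, 4060 to 4979 genes were called.

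**Figure D1:**
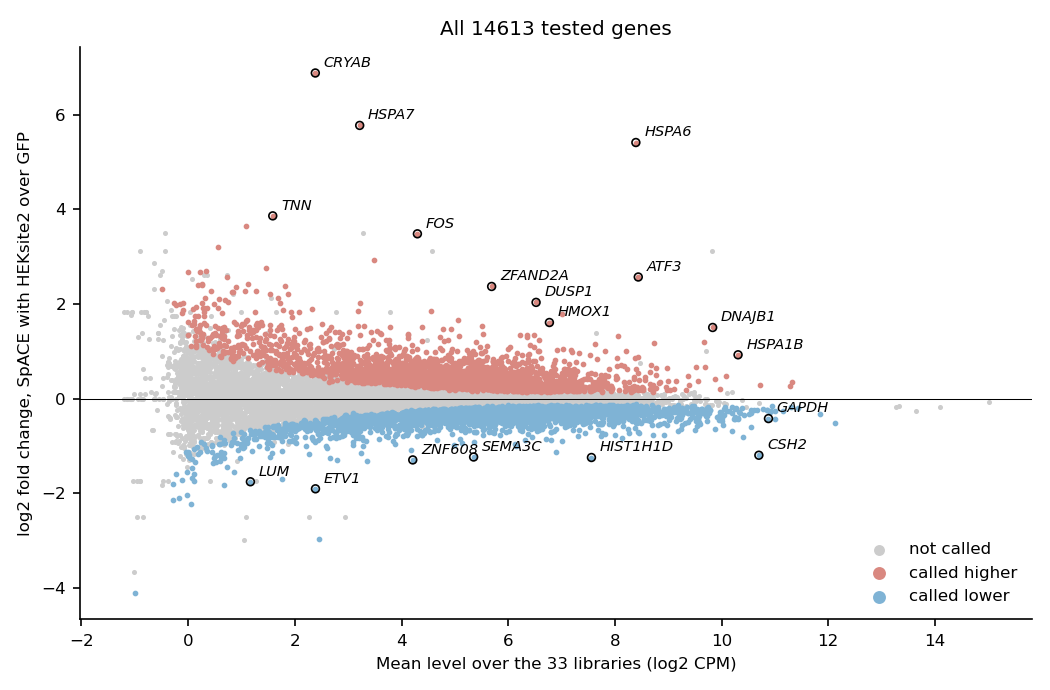
Log2 fold change of SpACE with HEKsite2 over GFP (vertical axis) against the mean level over the 33 libraries in log2 CPM (horizontal axis) for the 14613 tested genes, 1 point per gene, coloured by call at an adjusted p under 0.05. HSPA6, at 5.41, and ATF3, at 2.57, stand far above genes of similar level, and CSH2, at -1.20, lies well below 0 at high level.

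The lists of genes below were chosen with earlier results of these data known, so their counts are descriptions and are read against the shares over all genes, with a median log2 fold change of 0.0 over the tested genes. The plot of list members shows 15 of them. Among these 15, early response genes had the highest median, at 0.94, and replication-dependent histone genes the lowest, at -0.67.

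**Figure D2:**
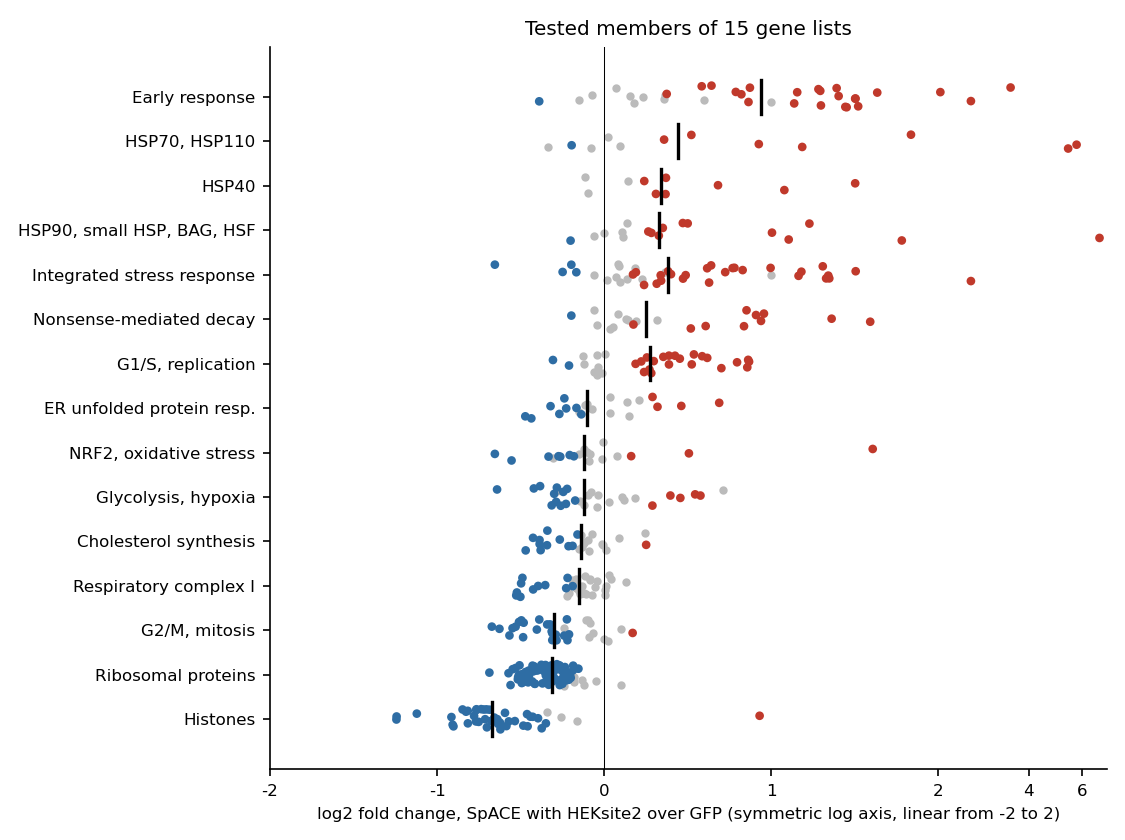
Log2 fold change of SpACE with HEKsite2 over GFP (horizontal axis, linear between -2 and 2 and logarithmic beyond) for the tested members of 15 gene lists (rows), 1 point per gene, red where called higher, blue where called lower and grey where not called, with a black bar at the list's median. The early response list lies mostly to the right (23 of 34 called higher), and the ribosomal protein and histone lists lie to the left (73 of 84 and 40 of 44 called lower).

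HSP70 and HSP110 chaperones help to fold and refold other proteins. Most genes of this list rose in SpACE cells, the stress-inducible members most. Of 12 tested HSP70 and HSP110 genes, 7 rose, 1 fell and 4 were not called, with a median log2 fold change of 0.44. The 7 include the HSP110 genes HSPH1 and HSPA4L and the pseudogene HSPA7. HSPA6, a strictly stress-inducible HSP70 on chromosome 1 (161524540 to 161526910, GRCh38), stood at 3.09, 3.67 and 3.97 CPM in GFP and 205, 133 and 119 CPM in SpACE. Every SpACE library lay far above every GFP library, the first SpACE library highest, and the difference was 5.41 ± 0.17 on the log2 scale (SE), with an adjusted p of 6.04e-26. Leaving out 1 library at a time gave 5.14 to 5.56. HSPA7, a close relative of HSPA6 annotated as a pseudogene whose reads the counting may share with it, had 119 counts over the SpACE libraries and 2 over the GFP libraries, a ratio of 66.1 (95% exact counting interval 17.9 to 552, counting error only).

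HSPA1B, the major inducible HSP70 of human cells, was at 631, 631 and 645 CPM in GFP and 1233, 1180 and 1212 CPM in SpACE. The groups were tight and well apart (log2 fold change 0.93 ± 0.06 (SE), adjusted p = 7.93e-16). HSPA1A, which is nearly identical to HSPA1B so that the split of reads between them is uncertain, was at 0.698, 0.376 and 0.331 CPM in GFP and 2.19, 1.95 and 1.02 CPM in SpACE (log2 fold change 1.84 ± 0.43 (SE), adjusted p = 0.000688). HSPH1, an HSP110 that acts as a nucleotide exchange factor for HSP70, stood at 449, 444 and 442 CPM in GFP and 1049, 988 and 1000 CPM in SpACE. It rose in every SpACE library above every GFP library (log2 fold change 1.19 ± 0.08 (SE), adjusted p = 1.46e-15). HSPA4L, another HSP110-like protein, rose by 0.52 ± 0.07 (SE) from 162, 176 and 172 to 238, 244 and 250.5 CPM. The constitutive HSC70 gene HSPA8 fell by 0.19 on the log2 scale (adjusted p = 0.0186), a call lost without SpACE library 1 or 2 or GFP library 1, when 0 members fell. The endoplasmic reticulum HSP70 gene HSPA5 was not called, at 0.03 ± 0.09 (SE) and an adjusted p of 0.802.

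The J-domain cochaperones that hand clients to HSP70 moved in the same direction: 7 of 10 tested HSP40 genes rose, 0 fell and the median log2 fold change was 0.34. In edgeR's test 0 were lower at an unadjusted p under 0.05, and DESeq2 called 0 lower. DNAJB1, the main heat-inducible HSP40, was at 280.4, 301 and 299 CPM in GFP and 910.1, 808 and 777 CPM in SpACE. No library overlapped between the groups (log2 fold change 1.5 ± 0.08 (SE), adjusted p = 2.63e-18). DNAJB5 was at 6.68, 6.49 and 6.73 CPM in GFP and 14.3, 13.2 and 14.6 CPM in SpACE and rose by 1.08 ± 0.13 (SE). The remaining risers were smaller, with DNAJB2 at 0.68, DNAJB4 at 0.37, DNAJA1 at 0.37, DNAJC2 at 0.31 and DNAJB6 at 0.24.

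Of 17 tested genes for HSP90, its cochaperones, small heat shock proteins, BAG proteins and heat shock factors, 11 rose and 1 fell, with a median of 0.33. BAG3, which links HSP70 to selective autophagy, was at 40.6, 41.0 and 41.6 CPM in GFP and 153, 136 and 135 CPM in SpACE. Its 3 GFP libraries were almost equal and its 3 SpACE libraries all stood more than 3-fold above them (log2 fold change 1.78 ± 0.08 (SE), adjusted p = 3.22e-20). CRYAB, a small heat shock protein (αB-crystallin), had 151 counts over the SpACE libraries and 1 over the GFP libraries, a ratio of 168 (95% exact counting interval 29.7 to 6670). HSPB1, the small heat shock protein HSP27, was at 27.8, 33.1 and 33.1 CPM in GFP and 69.1, 66.9 and 66.1 CPM in SpACE, also without overlap (log2 fold change 1.10 ± 0.11 (SE), adjusted p = 6.82e-11). CHORDC1, an HSP90 cochaperone, was at 187, 186 and 169.6 CPM in GFP and 370.0, 358 and 361 CPM in SpACE (log2 fold change 1.00 ± 0.07 (SE), adjusted p = 5.15e-15). The abundant HSP90 gene HSP90AA1 rose only from 2561, 2518 and 2492 to 3063, 3072 and 2962 CPM, by 0.26 ± 0.06 (SE), and the HSP90 activators AHSA1 and STIP1 rose by 0.50 and 0.47. The single member that fell was HSF1, the factor that drives these genes, at -0.20 (adjusted p = 0.0349), and 0 members fell without SpACE library 2 or 3 or GFP library 1 or 3. The counts of risers in the HSP70, HSP40 and HSP90 lists were the same, 7, 7 and 11, with each of the 6 libraries left out. ZFAND2A, a heat- and arsenite-inducible gene that was in none of these lists, was at 10.7, 10.7 and 11.3 CPM in GFP and 62.7, 53.1 and 53 CPM in SpACE (log2 fold change 2.37 ± 0.11 (SE), adjusted p = 4.56e-20).

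A heat shock element, the binding site of HSF1, was searched for in the 250 bases before each start in the RefSeq promoter table (GRCh38.p14) as 3 alternating triplets, GAA, TTC and GAA or TTC, GAA and TTC, with 2 bases of any kind between neighbouring triplets, on both strands. It was present in 120 of 27305 promoters (0.439%), in 32 of the 10654 that matched tested genes (0.3%), in 2 of 10 of the HSP70 list, 1 of 10 of the HSP40 list and 1 of 14 of the HSP90 list. The 4 windows are shown because they hold the element in a chaperone gene whose level was called, and capitals mark the letters of the element. The window of CHORDC1 holds 3 overlapping matches and that of HSPA8 the first of 2.
HSPA6, chr1:161524451-161524493, plus strand: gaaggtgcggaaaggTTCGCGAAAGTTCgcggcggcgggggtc
CHORDC1, chr11:90223072-90223124, minus strand: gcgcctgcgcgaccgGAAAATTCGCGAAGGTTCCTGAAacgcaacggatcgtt
DNAJB6, chr7:157336858-157336900, plus strand: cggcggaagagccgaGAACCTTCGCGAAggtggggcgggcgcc
HSPA8, chr11:123062339-123062381, minus strand: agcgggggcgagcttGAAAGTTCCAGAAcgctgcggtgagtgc
HSPA6, CHORDC1 and DNAJB6 rose. HSPA8 fell, by a call that was lost without SpACE library 1 or 2 or GFP library 1. The match is of letters only. The windows of DNAJB1, BAG3, HSPA1B and HSPH1 did not hold these exact letters.

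**Figure D3:**
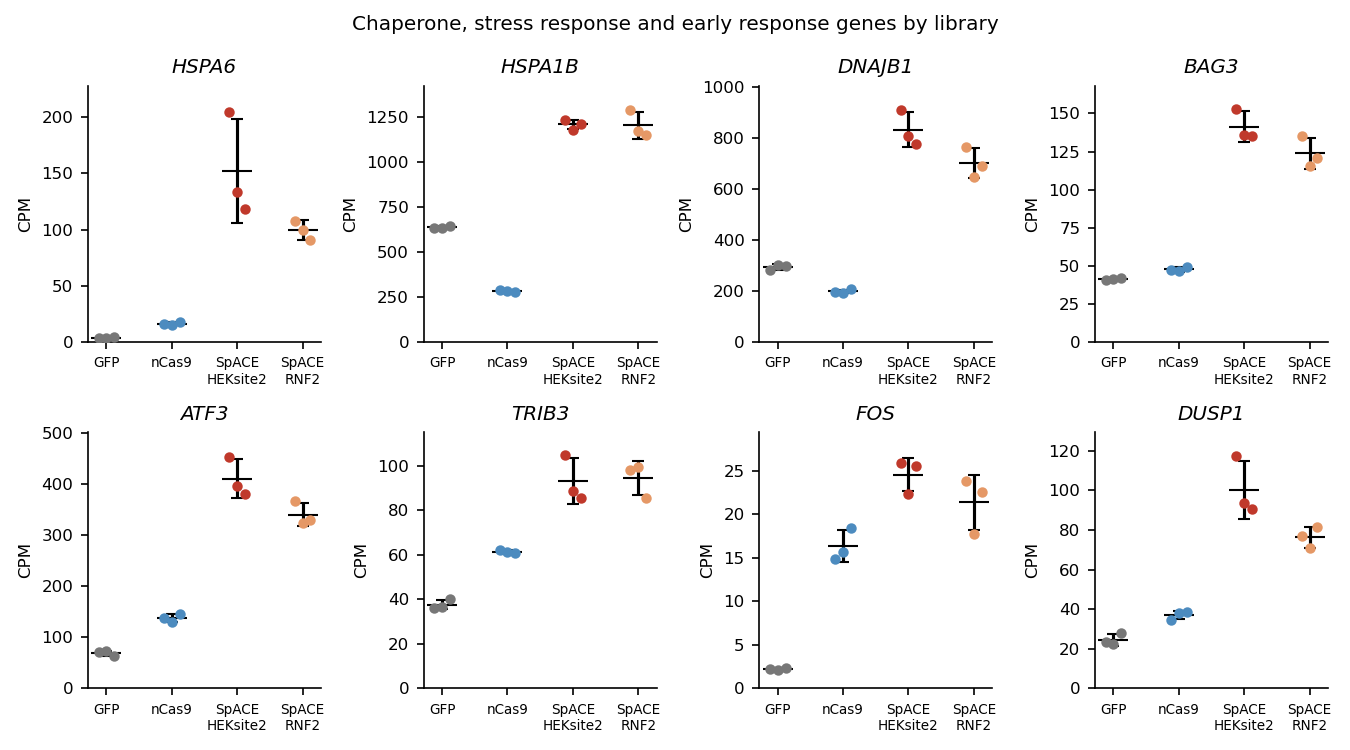
CPM of 8 genes (panels, linear axes from 0) in the 3 libraries each of GFP, nCas9 with HEKsite2, SpACE with HEKsite2 and SpACE with RNF2 (points), with the mean (long bar) and SD (error bar). In each panel all 6 SpACE libraries lie above the GFP libraries, and for HSPA1B and DNAJB1 the nCas9 libraries lie below the GFP libraries.

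Genes of the integrated stress response rose in SpACE cells while ATF4 itself fell. Of 41 tested targets and regulators, 26 rose, 4 fell and 11 were not called, with a median of 0.38. ATF3, a stress-induced transcription factor downstream of ATF4 and also an early response gene, was at 70.3, 73.0 and 63.6 CPM in GFP and 453, 396 and 381 CPM in SpACE. No SpACE library came near the GFP range (log2 fold change 2.57 ± 0.08 (SE), adjusted p = 3.68e-26). TRIB3, a pseudokinase that feeds back on ATF4 and CHOP, was at 36.3, 36.4 and 40.1 CPM in GFP and 105, 88.8 and 85.4 CPM in SpACE (log2 fold change 1.31 ± 0.08 (SE), adjusted p = 7.4e-17). PPP1R15A (GADD34), the phosphatase subunit that reverses eIF2α phosphorylation, was at 37.2, 34.8 and 35.0 CPM in GFP and 107, 82.8 and 82.7 CPM in SpACE, again without overlap (log2 fold change 1.35 ± 0.08 (SE), adjusted p = 1.07e-16). SESN2, an inhibitor of mTORC1 signalling, was at 107, 115 and 106 CPM in GFP and 314, 258 and 252 CPM in SpACE (log2 fold change 1.33 ± 0.08 (SE), adjusted p = 5.78e-17).

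Genes of amino acid supply were among the risers. CTH, which makes cysteine from cystathionine, was at 29.8, 34.9 and 29.4 CPM in GFP and 89.0, 75.7 and 74.3 CPM in SpACE (log2 fold change 1.34 ± 0.08 (SE), adjusted p = 6.02e-17). STC2 rose by 1.16 ± 0.08 (SE), the amino acid transporter subunit SLC3A2 by 1.18 and the stress cytokine GDF15 by 1.00. CHAC1, which degrades glutathione, was at 15.5, 14.4 and 11.5 CPM in GFP and 28.8, 23.6 and 21.6 CPM in SpACE (log2 fold change 0.83 ± 0.12 (SE), adjusted p = 3.7e-07). DDIT3, which encodes CHOP, rose by 0.64 ± 0.09 (SE) from 20.6, 20.8 and 19.8 to 35.2, 29.7 and 30.6 CPM. ASNS, asparagine synthetase, was only slightly higher, at 376, 359.8 and 346 CPM in GFP and 398, 411 and 412 CPM in SpACE (log2 fold change 0.17 ± 0.06 (SE), adjusted p = 0.0235). This call was lost without SpACE library 2 or 3 or GFP library 2 or 3, where the fold change was 0.14 to 0.17 and the adjusted p 0.0543 to 0.107. The 4 members that fell were the cystine transporter gene SLC7A11, from 212, 225 and 188 to 123, 138 and 136 CPM (log2 fold change -0.65 ± 0.07 (SE), adjusted p = 2.56e-09), the tRNA synthetase genes EPRS and NARS at -0.25 and -0.17, and ATF4. ATF4 was at 629, 588 and 588 CPM in GFP and 524, 530.0 and 522 CPM in SpACE (log2 fold change -0.20 ± 0.06 (SE), adjusted p = 0.0053).

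The C/EBP-ATF element, which ATF4 and its partners bind, was searched for as TGATGNAAN or its reverse complement NTTNCATCA. It was present in 867 of the 27305 promoter windows (3.18%), in 143 of the 10654 windows of tested genes (1.34%) and in 4 of the 27 windows of this list (14.8%). The windows of ATF3, CHAC1 and ASNS are shown because they hold the element in a gene of the list whose level was called. Capitals mark the element.
ATF3, chr1:212565201-212565239, plus strand: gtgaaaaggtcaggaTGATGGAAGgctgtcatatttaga
CHAC1, chr15:40953246-40953284, plus strand: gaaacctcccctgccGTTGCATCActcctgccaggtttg
ASNS, chr7:97872453-97872491, minus strand: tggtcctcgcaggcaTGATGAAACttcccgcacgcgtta
The 3 genes rose by 2.57, 0.83 and 0.17, and the fourth gene with the element, FGF21, was not called (1.00, adjusted p = 0.261).

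Genes of the unfolded protein response of the endoplasmic reticulum split. Of 21 tested, 4 rose, 8 fell and 9 were not called, with a median of -0.10. XBP1, whose transcript is spliced to the active factor by IRE1, was at 217, 201 and 202 CPM in GFP and 349, 324 and 325 CPM in SpACE (log2 fold change 0.69 ± 0.07 (SE), adjusted p = 1.05e-10). HERPUD1, a component of ER-associated degradation, rose by 0.46 ± 0.06 (SE) and the sensor gene ATF6 by 0.29 ± 0.05. SEL1L, the adaptor of the HRD1 ubiquitin ligase, fell from 128, 124 and 127 to 88.2, 93.5 and 91.9 CPM (log2 fold change -0.47 ± 0.06 (SE), adjusted p = 2.05e-08). The translocon subunit SEC61B fell by 0.44 and the disulfide isomerase PDIA6 by 0.27 on the log2 scale. The count of members that fell was 4 without SpACE library 1 and 5 without SpACE library 2, GFP library 1 or GFP library 2.

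Early response genes, which serum, growth factors and stress induce within minutes, had the highest median of the lists plotted. Of 34 tested, of 35 in the list, 23 rose, 1 fell and 10 were not called, and the median log2 fold change was 0.94. FOS, an AP-1 subunit, was at 2.19, 2.07 and 2.32 CPM in GFP and 25.9, 22.4 and 25.5 CPM in SpACE. The SpACE libraries were about 11-fold above GFP with no overlap (log2 fold change 3.48 ± 0.17 (SE), adjusted p = 2.97e-19). DUSP1, a phosphatase that inactivates MAP kinases, was at 23.4, 22.3 and 28.0 CPM in GFP and 117, 93.4 and 90.4 CPM in SpACE (log2 fold change 2.03 ± 0.09 (SE), adjusted p = 1.81e-20). The other MAP kinase phosphatase genes DUSP6, DUSP4, DUSP8, DUSP5 and DUSP2 rose by 1.64, 1.45, 1.30, 1.16 and 0.64.

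JUN, the partner of FOS, was at 156, 182 and 186 CPM in GFP and 339, 321 and 302 CPM in SpACE (log2 fold change 0.87 ± 0.07 (SE), adjusted p = 1.78e-13). EGR1, a zinc finger factor, was at 1.79, 3.29 and 2.54 CPM in GFP and 5.29, 7.70 and 5.65 CPM in SpACE, where even the highest GFP library lay below the lowest SpACE library (log2 fold change 1.28 ± 0.26 (SE), adjusted p = 0.000173). FOSL2 was at 4.38, 4.61 and 5.52 CPM in GFP and 15.4, 11.7 and 14 CPM in SpACE (log2 fold change 1.5 ± 0.17 (SE), adjusted p = 4.21e-09). MAFF, KLF2, KLF4, the orphan receptor genes NR4A1, NR4A2 and NR4A3, and FOSL1 and FOSB also rose, by 0.79 to 1.52. MYC was the single member that fell, at -0.39 (adjusted p = 0.0022). JUNB, at 0.36, and IER3, at 0.23, were not called. Between 20 and 23 members were called higher when 1 library was left out.

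Targets of YAP and TEAD, the effectors of the Hippo pathway, did not move together: 9 of 22 rose, 2 fell and the median was 0.15. CYR61 (CCN1), a matricellular protein, was at 5.68, 7.90 and 3.75 CPM in GFP and 12, 10.6 and 11.3 CPM in SpACE (log2 fold change 0.94 ± 0.16 (SE), adjusted p = 6.38e-06). AMOTL2, a target that also restrains YAP, was at 23.6, 22.6 and 27.0 CPM in GFP and 66.2, 48.4 and 51.8 CPM in SpACE (log2 fold change 1.19 ± 0.12 (SE), adjusted p = 2.16e-10). ANKRD1 went the other way, at 12.6, 16.3 and 15.8 CPM in GFP and 10.3, 7.59 and 6.78 CPM in SpACE (log2 fold change -0.85 ± 0.15 (SE), adjusted p = 1.19e-05). CTGF (CCN2) was called higher at low level, from 2.49, 1.79 and 1.32 to 3.79, 2.93 and 2.60 CPM (log2 fold change 0.72 ± 0.27 (SE), adjusted p = 0.0369). That call was lost without SpACE library 1 or 2 or GFP library 2 or 3, with 0.54 to 0.76 and adjusted p of 0.0559 to 0.191.

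Among 15 tested NF-κB and cytokine genes, of 23 in the list, 6 rose and 1 fell, and 0 fell without SpACE library 1 or 2 or GFP library 1. RELB, an NF-κB subunit, was at 3.69, 4.89 and 3.53 CPM in GFP and 8.74, 8.03 and 8.25 CPM in SpACE (log2 fold change 1.03 ± 0.17 (SE), adjusted p = 3.93e-06). TNFRSF12A, the TWEAK receptor, rose by 1.01 ± 0.15 (SE), and NFKB2 and NFKB1 by 0.43 and 0.33. Interferon-stimulated genes were low or mixed. Of 19 tested, 2 rose and 3 fell, with 1 riser without SpACE library 3 or GFP library 1. IFIT1, a sensor of foreign RNA ends, was at 6.68, 7.99 and 6.95 CPM in GFP and 2.65, 4.12 and 3.95 CPM in SpACE (log2 fold change -1.01 ± 0.22 (SE), adjusted p = 0.000301). DDX58, which encodes the RNA sensor RIG-I, rose by 0.63 ± 0.16 (SE), and ISG15 was not called at 1.40, 1.41 and 2.21 CPM in GFP and 2.42, 1.95 and 1.92 CPM in SpACE (log2 fold change 0.34 ± 0.28 (SE), adjusted p = 0.365).

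Of 23 tested p53 targets, 6 rose and 2 fell, with a median of 0.01, and 4 fell without SpACE library 3. PLK3, a polo-like kinase, was at 1.89, 2.82 and 2.10 CPM in GFP and 11.5, 8.14 and 8.25 CPM in SpACE (log2 fold change 2.01 ± 0.20 (SE), adjusted p = 1.58e-10). GADD45A rose by 0.96 ± 0.09 (SE). CDKN1A, which encodes the cell cycle inhibitor p21, was at 46.1, 66.3 and 66.2 CPM in GFP and 58.4, 80.0 and 73.8 CPM in SpACE, with overlap between the groups and no call (log2 fold change 0.25 ± 0.15 (SE), adjusted p = 0.196). With no low count filter CDKN1A was called in edgeR's test (0.24, adjusted p = 0.00859). MDM2, the ubiquitin ligase of p53, fell from 466, 576 and 562 to 369, 417 and 442 CPM (log2 fold change -0.38 ± 0.10 (SE), adjusted p = 0.00361).

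HMOX1 stood apart within the oxidative stress list. Heme oxygenase 1, its product, breaks down heme and is induced by NRF2 and by heat shock. HMOX1 was at 71.5, 49.5 and 51.5 CPM in GFP and 184, 169.5 and 173 CPM in SpACE (log2 fold change 1.61 ± 0.09 (SE), adjusted p = 2.83e-17). Of the 19 tested genes of the list 3 rose and 7 fell, with a median of -0.12. The peroxiredoxin gene PRDX1 fell from 752, 702 and 689 to 445, 488 and 527 CPM (log2 fold change -0.55 ± 0.08 (SE), adjusted p = 5.5e-07), the glutathione synthesis gene GCLM fell by 0.26, and SQSTM1, the autophagy receptor p62, rose by 0.51 ± 0.06 (SE). The metallothionein gene MT2A fell by 0.62 on the log2 scale (adjusted p = 0.00437), and 4 of the 6 tested genes of the metal response were not called. Without SpACE library 2 or 3 or GFP library 1, 2 of the 6 fell.

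Genes of the G1/S transition and of DNA replication rose in SpACE cells, and genes of G2 and mitosis fell. Of 32 tested G1/S and replication genes, 21 rose and 2 fell, with a median of 0.28. Of 32 tested G2/M genes, 1 rose and 22 fell, with a median of -0.30. The share of all counts taken by the G1/S list was 0.535 to 0.543% in GFP and 0.659 to 0.679% in SpACE libraries. The share of the G2/M list was 0.603 to 0.616% in GFP and 0.494 to 0.524% in SpACE, so neither list overlapped between the groups. Without GFP library 2, 1 G1/S gene fell, and without that library or SpACE library 2, 0 G2/M genes rose. In bulk libraries fewer cells of a kind, or in a phase, and less RNA per cell cannot be told apart.

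E2F1, a factor that drives entry into S phase, was at 44.6, 41.8 and 42.9 CPM in GFP and 81.7, 79.5 and 74.8 CPM in SpACE (log2 fold change 0.87 ± 0.06 (SE), adjusted p = 3.38e-14). MCM5, a subunit of the replicative helicase, was at 202, 190.4 and 205 CPM in GFP and 391, 354 and 340.3 CPM in SpACE (log2 fold change 0.86 ± 0.06 (SE), adjusted p = 9.42e-14). CDC6, which loads that helicase, was at 180.5, 186 and 191 CPM in GFP and 324, 296 and 286 CPM in SpACE and CCNE1, cyclin E1, at 20.0, 19.8 and 17.3 CPM in GFP and 35.4, 30.3 and 33.8 CPM in SpACE. Both rose without overlap, by 0.70 ± 0.06 and 0.80 ± 0.08 (SE). CDC45 rose by 0.54 ± 0.08 (SE), whereas PCNA and RRM2 were not called (both -0.04). Among mitotic genes TOP2A, topoisomerase II alpha, was at 1145, 1227 and 1183 CPM in GFP and 698, 734 and 799 CPM in SpACE (log2 fold change -0.67 ± 0.06 (SE), adjusted p = 5.24e-11). KIF20A, a kinesin of cytokinesis, was at 155, 142 and 138 CPM in GFP and 89.1, 96.1 and 96.5 CPM in SpACE (log2 fold change -0.63 ± 0.06 (SE), adjusted p = 9.46e-12). DLGAP5, TTK and HMMR, of the mitotic spindle and its checkpoint, fell by 0.57, 0.55 and 0.53 on the log2 scale.

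Replication-dependent histone genes, whose transcripts are made in S phase and normally end in a stem-loop in place of a poly(A) tail, had the lowest median of the lists plotted. Of 44 tested, of 67 in the table, 40 fell and 1 rose, HIST1H3D at 0.93, and the median was -0.67. HIST1H3D was not called without SpACE library 1. They took 1.30 to 1.58% of counts in GFP libraries and 0.854 to 1.02% in SpACE libraries. HIST1H1D, a linker histone gene, was at 246, 300.3 and 346 CPM in GFP and 88.2, 144 and 145 CPM in SpACE (log2 fold change -1.24 ± 0.13 (SE), adjusted p = 6.48e-10). HIST1H3A was at 150.0, 186 and 219.6 CPM in GFP and 70.6, 88.9 and 95.5 CPM in SpACE (log2 fold change -1.12 ± 0.11 (SE), adjusted p = 3.73e-10). HIST1H2BD, the most abundant of the named histone genes, was at 667, 719 and 785 CPM in GFP and 364, 441 and 472 CPM in SpACE, the 3 SpACE libraries all below the 3 GFP libraries (log2 fold change -0.76 ± 0.09 (SE), adjusted p = 3.28e-09). Histone genes are close copies of each other, and how the counting divided shared reads is not given in the sources used here. Between 37 and 40 members fell with 1 library left out.

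**Figure D4:**
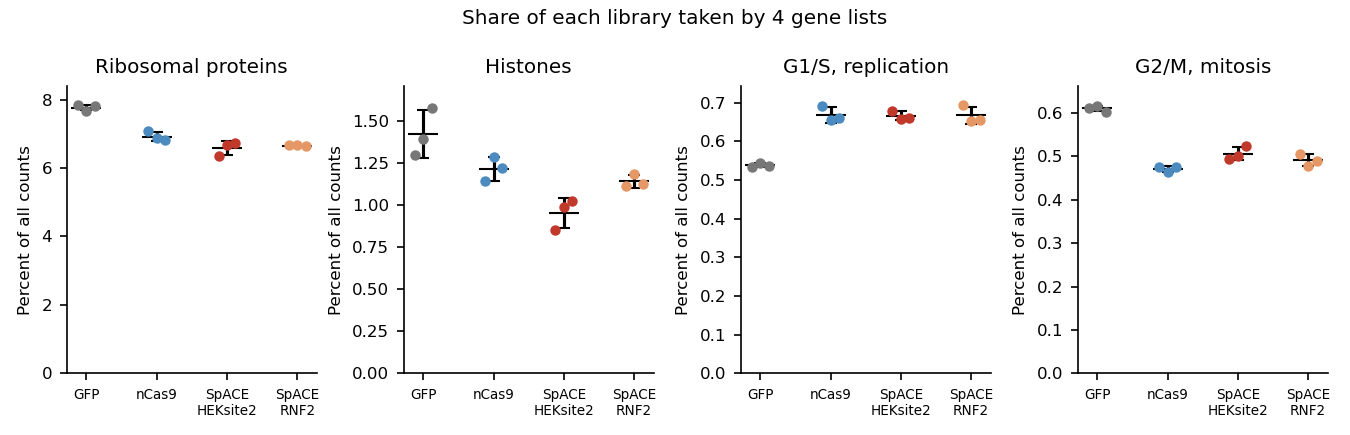
Share of each library's counts, in percent (linear axes from 0), taken by 4 gene lists (panels) in GFP, nCas9 with HEKsite2, SpACE with HEKsite2 and SpACE with RNF2, 1 point per library with mean and SD. Ribosomal protein, histone and G2/M shares are lower in SpACE than in GFP libraries, and the G1/S share is higher.

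Cytosolic ribosomal protein genes fell almost throughout. Of 84 tested, 73 fell, 0 rose and 11 were not called, with a median of -0.31, and 63 to 70 fell with 1 library left out. In edgeR's test 0 of them were higher at an unadjusted p under 0.05, and DESeq2 called 0 higher. These genes took 7.68 to 7.83% of the counts of GFP libraries and 6.36 to 6.74% of those of SpACE libraries. RPL7A, of the large subunit, was at 1804, 1731 and 1806 CPM in GFP and 985, 1152 and 1181 CPM in SpACE (log2 fold change -0.69 ± 0.07 (SE), adjusted p = 1.22e-09). RPS25, of the small subunit, was at 521, 517 and 529 CPM in GFP and 330.4, 371 and 394 CPM in SpACE (log2 fold change -0.52 ± 0.06 (SE), adjusted p = 3.9e-08). Many pseudogenes resemble these genes, so reads may be shared. Mitochondrial ribosomal protein genes did not follow: 16 of 76 rose and 10 fell, with a median of 0.03, among them MRPL46 at 0.56 and MRPS21 at -0.54.

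Several genes of energy metabolism were lower. Of 29 tested glycolysis and hypoxia genes, 12 fell and 5 rose. In the fifth of all tested genes with the highest mean level, 34.4% were called lower and 17.6% higher. The part that level plays in the counts of this list was not tested. LDHA, lactate dehydrogenase A, was at 861, 859.7 and 917 CPM in GFP and 513, 590.2 and 588 CPM in SpACE (log2 fold change -0.64 ± 0.07 (SE), adjusted p = 2.06e-09). GAPDH was at 2505, 2459 and 2532 CPM in GFP and 1786, 1868 and 1947 CPM in SpACE (log2 fold change -0.42 ± 0.06 (SE), adjusted p = 2.01e-06). The enzyme genes ALDOA, GPI, PGK1, ENO1, TPI1 and PKM fell by 0.17 to 0.31 on the log2 scale, while the hypoxia-responsive genes ADM, KDM3A and VEGFA rose by 0.58, 0.46 and 0.40. Without GFP library 1 the list held 3 risers. Of 37 tested genes of respiratory complex I, 11 fell and 0 rose, with a median of -0.15, and 0 were higher at an unadjusted p under 0.05 in edgeR or called higher by DESeq2. NDUFB3 was at 63.0, 62.8 and 67.8 CPM in GFP and 40.7, 46.9 and 46.7 CPM in SpACE (log2 fold change -0.53 ± 0.07 (SE), adjusted p = 1.14e-07), and NDUFC1, NDUFS5 and NDUFA2 fell by 0.52, 0.50 and 0.50 on the log2 scale.

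Cholesterol synthesis genes fell in part: 11 of 25 fell and 1 rose, with a median of -0.14, and 0 rose without SpACE library 2 or 3 or GFP library 2 or 3. HMGCS1, which makes the HMG-CoA of the pathway, was at 187, 194 and 184 CPM in GFP and 133, 142 and 158 CPM in SpACE, with no overlap between the groups (log2 fold change -0.39 ± 0.07 (SE), adjusted p = 2.19e-05).

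Nonsense-mediated decay destroys transcripts with an early stop codon and several natural targets, among them host transcripts of small nucleolar RNAs (snoRNAs). Of 20 tested targets and factors, 10 rose and 1 fell, with a median of 0.25. For nCas9 over GFP 12 of the 20 rose and 0 fell, with a median of 0.38. For SpACE over nCas9 3 rose and 5 fell. SNHG15, a snoRNA host transcript, was at 37.9, 39.5 and 34.5 CPM in GFP and 134, 101 and 103 CPM in SpACE (log2 fold change 1.59 ± 0.09 (SE), adjusted p = 4.29e-18). GAS5, another host, was at 124, 144 and 128 CPM in GFP and 259.5, 236 and 213 CPM in SpACE (log2 fold change 0.84 ± 0.08 (SE), adjusted p = 5.12e-11). ZFAS1 and SNHG12 rose by 0.94 ± 0.08 and 0.91 ± 0.10 (SE). The factor genes UPF1, UPF2, SMG1 and SMG6 were not called (-0.06 to 0.14), and UPF3B rose by 0.52. In the list of 22 snoRNA hosts, which shares 5 risers with the list above, 9 rose and 5 fell. For nCas9 over GFP 12 of the 22 hosts rose and 0 fell, with a median of 0.41. In neither list was a gene lower in nCas9 at an unadjusted p under 0.05 in edgeR or called lower by DESeq2. TAF1D and SNHG17 rose by 1.09 and 1.36, and SNHG19 fell by 0.66. Without SpACE library 2 or GFP library 1, 3 hosts fell. The snoRNAs themselves were mostly not called: 22 of 194 fell and 6 rose, and the count that fell was 8 without SpACE library 3 and 10 without GFP library 1, while the count that rose was 1 without SpACE library 1 and 3 without GFP library 3.

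Of 20 tested genes for SR splicing factors and their kinases, 10 rose and 3 fell. CLK1, a kinase of SR proteins, was at 46.0, 39.7 and 35.4 CPM in GFP and 81.2, 74.8 and 73.3 CPM in SpACE (log2 fold change 0.92 ± 0.10 (SE), adjusted p = 1.97e-09). CLK4 and CLK3 rose by 0.79 and 0.60, and TRA2B by 0.56 ± 0.06 (SE). SRSF3, SRSF9 and SRSF2 fell by 0.23, 0.26 and 0.18. Among 23 tested nuclear non-coding RNAs, 1 rose and 4 fell. The count that fell was 2, 7 and 1 without SpACE library 1, 2 and 3 and 0 without GFP library 3. The riser, MALAT1, was at 637, 677 and 634 CPM in GFP and 1259, 979 and 841 CPM in SpACE, with the SpACE libraries widely spread but all above GFP (log2 fold change 0.66 ± 0.12 (SE), adjusted p = 4.3e-05).

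Repair genes relevant to deaminated bases changed in both directions. Of 22 tested base excision repair genes, 9 rose and 4 fell, where 18.5% of all tested genes rose and 18.2% fell. For nCas9 over GFP, without a deaminase, 8 of the 22 rose and 3 fell. For SpACE over nCas9 3 rose and 4 fell. UNG, the uracil glycosylase that removes deaminated cytosine from DNA, was at 108, 114 and 110.0 CPM in GFP and 150.3, 142 and 143 CPM in SpACE (log2 fold change 0.39 ± 0.07 (SE), adjusted p = 6.13e-05). The scaffold gene XRCC1 rose by 0.44 ± 0.08 (SE), and LIG3, the ligase that XRCC1 binds, fell by 0.30. PARP1, which senses strand breaks, fell from 1402, 1392 and 1315 to 949, 972 and 1036 CPM (log2 fold change -0.47 ± 0.07 (SE), adjusted p = 3.54e-07). The uracil and thymine glycosylase genes SMUG1 and TDG fell by 0.30 and 0.21. Of 18 tested mismatch repair genes 5 rose and 2 fell, with 1 falling without SpACE library 2 or GFP library 2. For nCas9 over GFP 6 of the 18 rose and 2 fell. MSH6, which recognises mismatches, was not called (-0.07). EXO1, the exonuclease of the pathway, rose from 152, 159 and 160.2 to 265, 252 and 243 CPM (log2 fold change 0.69 ± 0.07 (SE), adjusted p = 7.42e-11).

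Of 22 genes of the cell's own deaminases in the list, 12 were tested. Of these 2 rose and 2 fell, where 18.5% of all tested genes rose and 18.2% fell. The count that fell was 1 without SpACE library 1 or 2 or GFP library 2 or 3. ADAR, which edits adenosine in RNA, was at 383, 407 and 412 CPM in GFP and 342, 354 and 369 CPM in SpACE (log2 fold change -0.17 ± 0.06 (SE), adjusted p = 0.0128), a call lost without SpACE library 1 (-0.15, adjusted p = 0.073) or GFP library 3 (-0.16, 0.0564). ADARB1 rose by 0.37 ± 0.10 (SE). APOBEC3B was at 1.89, 2.44 and 1.54 CPM in GFP and 0.805, 0.651 and 1.24 CPM in SpACE (log2 fold change -1.13 ± 0.34 (SE), adjusted p = 0.00733), and without SpACE library 2 or GFP library 2 its adjusted p was 0.0509 and 0.0598. RNF2, a Polycomb ubiquitin ligase and the target of the other guide, was at 73.1, 76.5 and 87.2 CPM in GFP and 72.1, 68.7 and 74.9 CPM in SpACE, with overlap and no call (log2 fold change -0.13 ± 0.07 (SE), adjusted p = 0.156). Of 19 tested genes of its complex, PRC1, 9 rose, led by PHC3 at 0.59 and PHC2 at 0.53, and 3 fell, with 1 falling without SpACE library 2 or 3 or without GFP library 2. Of 44 tested proteasome genes 8 were higher and 4 lower, beside 18.5% and 18.2% of all tested genes. The count lower was 2 without SpACE library 1, GFP library 1 or GFP library 3.

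Outside the lists, the largest rises by the naming rule included genes of low level. TNN, tenascin N, an extracellular matrix protein, was at 0.199, 0.658 and 0.441 CPM in GFP and 8.05, 6.51 and 5.08 CPM in SpACE. All SpACE libraries were higher and the GFP libraries near 0 (log2 fold change 3.86 ± 0.33 (SE), adjusted p = 6.4e-12). GIPC2 was at 0.199, 0.47 and 0 CPM in GFP and 2.99, 2.71 and 3.62 CPM in SpACE (log2 fold change 3.64 ± 0.42 (SE), adjusted p = 6.24e-09). PNLDC1, an exonuclease that trims piRNAs, was at 1.10, 2.35 and 1.88 CPM in GFP and 12.9, 13.6 and 14.8 CPM in SpACE (log2 fold change 2.94 ± 0.24 (SE), adjusted p = 9.28e-13). AMER2, SH2D3C and KIAA1324 rose by 2.75 ± 0.44, 2.43 ± 0.43 and 2.28 ± 0.43 (SE) from GFP levels under 1 CPM.

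The largest falls were smaller than the largest rises. ETV1, an ETS-family transcription factor, was at 11.3, 12.6 and 10.6 CPM in GFP and 3.45, 2.60 and 3.16 CPM in SpACE (log2 fold change -1.90 ± 0.20 (SE), adjusted p = 1.35e-09). LUM, lumican, a proteoglycan of connective tissue, was at 4.28, 4.51 and 3.75 CPM in GFP and 1.5, 0.977 and 1.24 CPM in SpACE (log2 fold change -1.75 ± 0.26 (SE), adjusted p = 9.43e-07), and the collagen gene COL3A1 fell with it by 1.03 on the log2 scale. These are 2 of 8 tested markers of mesenchymal cells, of 12 in the list, and the other 6 were not called. ZNF608 was at 41.6, 47.0 and 44.0 CPM in GFP and 16.1, 19.2 and 18.8 CPM in SpACE (log2 fold change -1.29 ± 0.10 (SE), adjusted p = 7.77e-14). SEMA3C, a secreted guidance protein, was at 70.4, 81.6 and 90.4 CPM in GFP and 32.9, 35.4 and 34.8 CPM in SpACE (log2 fold change -1.23 ± 0.08 (SE), adjusted p = 3.93e-15). ZBED8, EPPK1, CCDC80 and DHRS2 fell by 1.32, 1.29, 1.16 and 1.23 on the log2 scale. ZNF503-AS2, an antisense transcript whose reads cannot be told apart from its partner's because the strand setting of the counting is not given, fell by 1.15. MYBPC2 had 3 counts over the SpACE and 29 over the GFP libraries, a ratio of 0.115 (95% exact counting interval 0.0224 to 0.371).

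CSH2, a placental lactogen gene on chromosome 17 (63872012 to 63873766, GRCh38) with near-identical neighbours, was among the most abundant genes that fell, at 3151, 3275 and 3029 CPM in GFP and 1602, 1306 and 1221 CPM in SpACE (log2 fold change -1.20 ± 0.10 (SE), adjusted p = 5.53e-13). Its level was 2454, 2217 and 2413 CPM in nCas9, 1217, 1014 and 1124 in SpACE with RNF2 and 0.206, 0.194 and 0.124 in Target-AID with HEKsite2. SpACE stood below nCas9 by 0.78 on the log2 scale (adjusted p = 8.01e-08), and the GFP, nCas9 and SpACE ranges did not overlap. The source of these reads was not tested.

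Cells with nCas9 and the same guide were compared with the same 3 GFP libraries and gave 5605 called genes (38.4%), 2864 higher (19.6%) and 2741 lower (18.8%), so the values of the 2 comparisons stand side by side and share their controls. The direct comparison of SpACE with nCas9, in which GFP plays no part, called 3063 genes (21%), 1568 higher (10.7%) and 1495 lower (10.2%) in SpACE, with 984 lower without nCas9 library 1. The chaperones separated SpACE from nCas9, and their counts against 2 other editors are given below. HSP70 and HSP110 genes counted 7 risers and 1 fall for SpACE over GFP, 3 and 6 for nCas9 over GFP, and 8 and 0 for SpACE over nCas9. HSP40 genes counted 7 and 0, 1 and 3, and 7 and 0. For SpACE over nCas9 neither list had a gene lower at an unadjusted p under 0.05 in edgeR or called lower by DESeq2. HSPA1B was 287, 282 and 277 CPM in nCas9, below every GFP library (-1.17 ± 0.06, SE), whereas SpACE lay above GFP (0.93 ± 0.06). The test of SpACE against nCas9 gave 2.10 ± 0.06 on the log2 scale (SE), with an adjusted p of 5.98e-27. DNAJB1 was 197, 189.9 and 205 CPM in nCas9 (-0.57 ± 0.08 against GFP), and the difference between the constructs was 2.07 ± 0.08 on the log2 scale (SE), with an adjusted p of 1.93e-22. HSP90AA1 fell by 0.65 in nCas9 and rose by 0.26 in SpACE (difference 0.91 ± 0.07, adjusted p = 7.01e-14). HSPA6 was above GFP in both, at 16.1, 15.1 and 17.6 CPM in nCas9, and the difference of 3.22 ± 0.14 (SE) was called (adjusted p = 4.65e-21).

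The integrated stress response list counted 26 risers and 4 falls for SpACE over GFP, 16 and 11 for nCas9 over GFP, and 31 and 2 for SpACE over nCas9. ATF3 was 138, 130.5 and 145 CPM in nCas9, between GFP and SpACE, and SpACE exceeded nCas9 by 1.57 ± 0.08 (SE, adjusted p = 1.67e-19). ASNS was 261, 234 and 229.6 CPM in nCas9, below GFP, and SpACE exceeded nCas9 by 0.75 ± 0.06 (SE, adjusted p = 6.49e-12). DDIT3 rose in both constructs, and no difference between them was called (-0.05 ± 0.08, adjusted p = 0.746). In the early response list the counts were 23 and 1, 20 and 3, and 10 and 3. FOS was 14.9, 15.7 and 18.5 CPM in nCas9, and SpACE exceeded it by 0.58 ± 0.12 (SE, adjusted p = 0.000588). DUSP1 was also higher than in nCas9, by 1.44 ± 0.09 (SE, adjusted p = 6.51e-16).

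Cell cycle genes moved in the same direction in both constructs. G1/S genes counted 21 risers and 2 falls for SpACE and 22 and 3 for nCas9 over GFP, with 3 and 6 for SpACE over nCas9. G2/M genes counted 1 and 22, 1 and 26, and 6 and 0. E2F1 was lower in SpACE than in nCas9 (94.8, 93.4 and 95.2 CPM in nCas9, difference -0.26 ± 0.06, adjusted p = 0.00118), and for TOP2A the difference was 0.04 ± 0.06 (adjusted p = 0.73). Histone genes counted 1 and 40, 3 and 24, and 0 and 25, and ribosomal protein genes 0 and 73, 0 and 53, and 0 and 11. Of the counts of 0 in the G2/M, histone and ribosomal protein lists, DESeq2 also called 0, and at an unadjusted p under 0.05 edgeR gave 0 except for 1 G2/M gene lower in SpACE than in nCas9. HIST1H1D was 224, 252 and 245 CPM in nCas9, and SpACE stood below it by 0.93 on the log2 scale (adjusted p = 1.34e-06).

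Several genes lay far from their GFP level in nCas9 and nearer to it in SpACE. ANKRD1 was 1.58, 0.561 and 1.76 CPM in nCas9 (-3.46 ± 0.22 against GFP, -0.85 ± 0.15 for SpACE), a difference of 2.61 ± 0.25 on the log2 scale (SE), with an adjusted p of 2.88e-10. TMC8 was 28.2, 28.0 and 27.2 CPM in nCas9, against 3.39, 3.48 and 3.42 CPM in GFP and 10.2, 6.29 and 4.97 CPM in SpACE, and the difference between the constructs was -1.96 ± 0.21 on the log2 scale (SE), with an adjusted p of 4.02e-09. The rise of TMC8 in SpACE over GFP (log2 fold change 1.05 ± 0.29 (SE), adjusted p = 0.00399) was lost without SpACE library 1 (0.72, adjusted p = 0.0934). ZNF467 was 16, 15.8 and 16.6 CPM in nCas9 and 2.76, 4.88 and 4.41 in SpACE (-2.0 ± 0.18, adjusted p = 5.03e-11). Its small rise over GFP, 0.68 ± 0.24, was not called without SpACE library 2 or 3 or GFP library 2 or 3 (0.51 to 0.71, adjusted p 0.0502 to 0.161). EFNA3, an ephrin ligand, was 23.0, 24.5 and 22.9 CPM in nCas9, 7.77, 11.0 and 10.4 in GFP and 7.13, 6.51 and 8.81 in SpACE, and SpACE differed from nCas9 by -1.65 ± 0.13 (adjusted p = 1.18e-12). Against GFP it was higher in nCas9 (1.27 ± 0.12) and called lower in SpACE (-0.38 ± 0.14, adjusted p = 0.0348), with overlap between the SpACE and GFP libraries. That call was lost with DESeq2 (adjusted p = 0.0683), with only the groups compared (0.0733) and without SpACE library 1 or 2 or GFP library 2 or 3 (-0.34 to -0.27, adjusted p 0.11 to 0.207). LGALS1, galectin 1, was 6.67, 4.63 and 6.23 CPM in nCas9 and 1.84, 1.41 and 1.70 in SpACE (-1.83 ± 0.26, adjusted p = 1.3e-06), and SpACE did not pass the test against GFP (adjusted p = 0.0636).

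**Figure D5:**
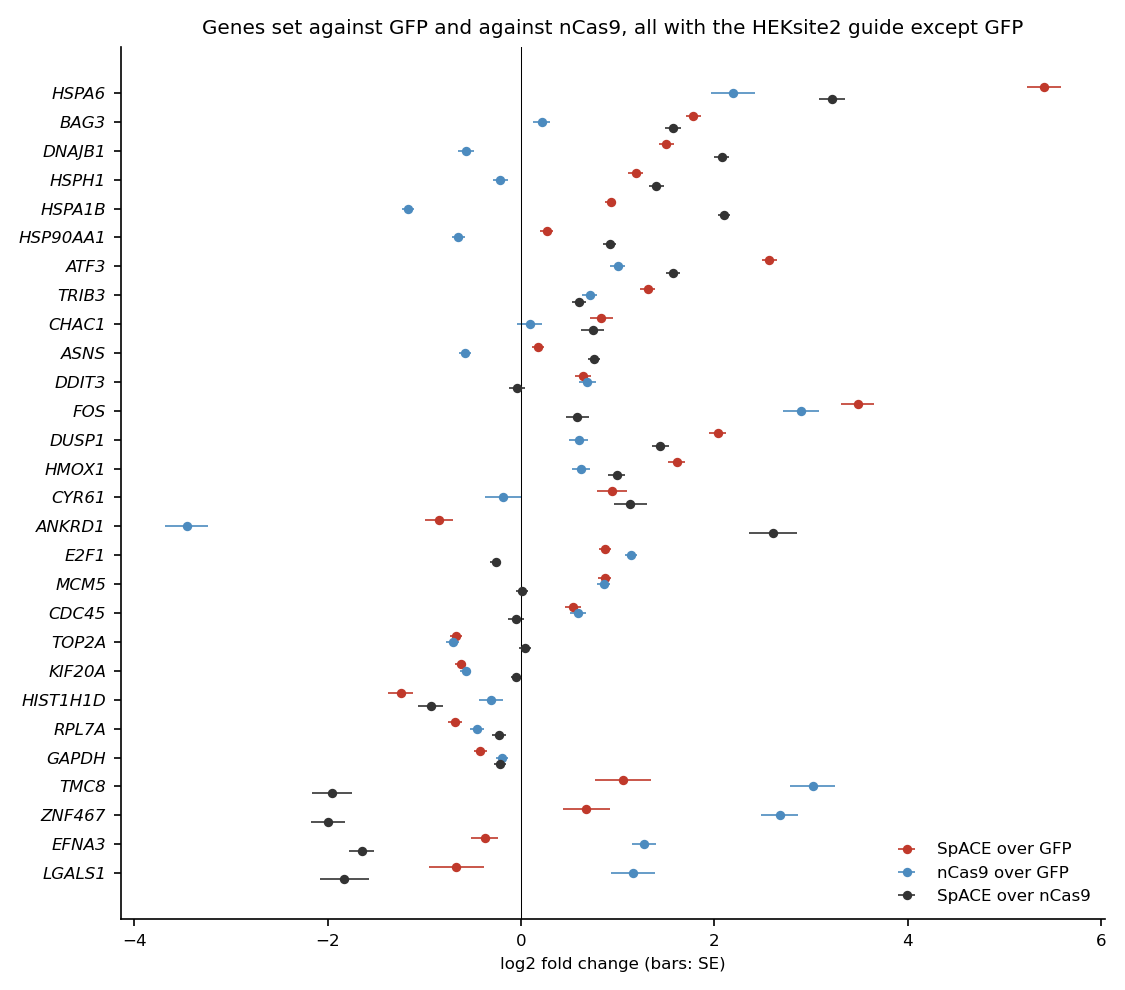
Log2 fold change with its SE (horizontal axis) of 28 genes (rows) for SpACE over GFP (red), nCas9 over GFP (blue) and SpACE over nCas9 (black), the first 2 sharing the GFP libraries. HSPA1B, DNAJB1 and HSP90AA1 lie right of 0 for SpACE and left of 0 for nCas9, whereas MCM5, CDC45, TOP2A and KIF20A lie close together for both.

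The second guide served as a repeat of the construct with another target. SpACE with RNF2 over GFP called 5534 genes (37.9%), 2764 higher (18.9%) and 2770 lower (19%), with the same GFP libraries. The direct comparison of the 2 guides called 6 of 14613 genes (0.0411%), 5 higher (0.0342%) and 1 lower (0.00684%) with HEKsite2. The count was 1, 4 and 4 without HEKsite2 library 1, 2 and 3, and 4, 1 and 2 without RNF2 library 1, 2 and 3. The count of genes lower with HEKsite2 was 0 without any 1 of these 6. HSPA6 was 108, 99.7 and 90.8 CPM with RNF2, below the 3 HEKsite2 libraries, a difference of 0.61 ± 0.11 on the log2 scale (SE), with an adjusted p of 0.015. DUSP1 was 76.7, 70.7 and 81.3 CPM with RNF2, and the difference was 0.40 ± 0.08 on the log2 scale (SE), with an adjusted p of 0.0385. TNFRSF10D, a decoy receptor for TRAIL, was 47.1, 45.4 and 42.5 CPM with RNF2 against 63.4, 65.5 and 66.1 CPM with HEKsite2 and 65.5, 70.1 and 67.2 CPM in GFP (0.53 ± 0.08, adjusted p = 0.001). Of the 44 histone genes, 0 were called between the guides by edgeR or DESeq2. At an unadjusted p under 0.05 in edgeR, 36 of them were lower with HEKsite2 and 0 higher. Over all 14613 genes 952 were higher or lower at that threshold. Histone genes took 0.854 to 1.02% of counts with HEKsite2 and 1.11 to 1.19% with RNF2. Their median log2 fold change over GFP was -0.67 with HEKsite2 and -0.38 with RNF2. RNF2 itself was 64.4, 62.1 and 60.5 CPM with its own guide, and no difference between the guides was called (0.20 ± 0.08, adjusted p = 0.586).

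Against the adenine editor miniABEmax-V82G with the same guide, 108 genes were called (0.739%), 64 higher (0.438%) and 44 lower (0.301%) in SpACE. The count was 75, 51 and 26 without SpACE library 1, 2 and 3, and 39, 13 and 40 without miniABEmax-V82G library 1, 2 and 3. HMOX1 was 119, 108 and 114 CPM with miniABEmax-V82G and higher with SpACE (log2 fold change 0.62 ± 0.09 (SE), adjusted p = 7.64e-05). HSPA1A was 5.37, 4.63 and 3.91 CPM with miniABEmax-V82G and lower with SpACE (log2 fold change -1.43 ± 0.27 (SE), adjusted p = 0.0079), with the uncertainty over HSPA1B given above. SPECC1L and FAM129A were higher in SpACE by 0.47 ± 0.08 and 0.58 ± 0.13 (SE), and GPRC5C was lower by 0.88 on the log2 scale. Of the 12 HSP70 and HSP110 genes 1 was higher and 1 lower in SpACE. In the HSP90 list 3 of 17 were higher and 0 lower, with 3 lower at an unadjusted p under 0.05 in edgeR. Of the 10 HSP40 genes 0 were called, and 3 were higher and 0 lower at that unadjusted threshold. DESeq2 called 0 of the HSP40 genes. Against the cytosine editor Target-AID 2706 genes were called (18.5%), 1199 higher (8.21%) and 1507 lower (10.3%), with 749 higher without Target-AID library 2. Of the 12 HSP70 and HSP110 genes 1 was higher and 6 were lower in SpACE than in Target-AID, with a median log2 fold change of -0.36. The counts were 1 and 2 for the 10 HSP40 genes and 1 and 3 for the 17 genes of the HSP90 list. TNN was 1.65, 1.55 and 0.992 CPM and PNLDC1 2.78, 3.78 and 2.60 CPM with Target-AID, and SpACE exceeded them by 2.19 ± 0.27 and 2.15 ± 0.22 (SE). HBB was 5019, 4218 and 4687 CPM with Target-AID and had 4 counts in all over the SpACE libraries and 2 over the GFP libraries. The source of the HBB reads was not tested, so they cannot be read as expression of the cells' own HBB gene.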

How the data were processed

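Total RNA of 33 HEK293T libraries was sequenced, in 11 groups of 3. The deposited table holds whole-number counts of reads per gene and library that the authors made from their reads, for 26475 genes, of which 2603 had no count. Per the submitters' processing notes, STAR, GATK 3.8.1 and Picard 2.7 were used with GRCh38 (hg38). For the counting tool, its strand setting and its annotation the sources used here give nothing, so reads shared by near-identical or overlapping genes may be divided either way.

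Groups were taken from the sample labels. Counts were filtered with filterByExpr, scaled by TMM and fitted in edgeR 4.0.16 (R 4.3.3) with 1 mean per group over all 33 libraries (22 residual degrees of freedom). Each of 7 comparisons was tested with the two-sided quasi-likelihood test, and p-values were Benjamini-Hochberg adjusted over the 14613 genes tested and called under 0.05. The standard error was derived from the fold change and its F statistic. CPM use the TMM-scaled library sizes. The code of the test was checked on simulated counts with known changes, drawn from means and spreads fitted to these data. Such counts cannot show whether the real libraries depend on each other. Ratios for genes with 3 counts or fewer in a group carry exact 95% intervals for counting error only. Depth was 6790209 to 11200406 counts per library.

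The members and the 34 gene lists were chosen with earlier results of these data known. Genes were named by rule: the 12 largest called rises and falls with no overlap between groups and a mean level, as log2 CPM, no lower than 1, up to 6 called members of each list by smallest p, a set of stress, cell cycle and control genes whatever their values, and the 4 largest rises and falls in each of the comparisons with nCas9, miniABEmax-V82G and Target-AID. Other list members, such as HSF1 and MYC, were named after their values were seen. Some genes that the rule names are not reported here. Positions are from GENCODE 29 and promoters from RefSeq (GRCh38.p14). Alternatives were RLE scaling, no low count filter, DESeq2 1.42.0, a replicate block, a fit on only the groups compared, and leaving out each library.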

Additional observations from a re-analysis of the deposited data

Results flagged for a closer look

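Between the HEKsite2 and RNF2 guides with SpACE, 6 genes differed by a test of the difference itself (edgeR's quasi-likelihood test, adjusted over 14613 genes). TNFRSF10D, a TRAIL decoy receptor, was higher with HEKsite2 by 0.528 on the log2 scale (adjusted p = 0.001). HSPA6 was higher by 0.611 (adjusted p = 0.015), and the MAP kinase phosphatase gene DUSP1 by 0.395 (adjusted p = 0.0385). BAG4, which binds HSP70, was higher by 0.296 (adjusted p = 0.0173), and CSNK2A1, the casein kinase 2 catalytic subunit, by 0.272. ZCCHC12 was the single gene that was lower, at -0.506 (adjusted p = 0.0238), and 0 genes were lower without any 1 of the 6 libraries. In all 6 cases the 3 libraries of each guide were compared, and the count of such genes was 1 to 4 with 1 library left out.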

How the results depend on the processing

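For SpACE over GFP, 5350 genes were called, against 5362 with RLE scaling, 5146 with no low count filter, 4722 with DESeq2 and 5543 in a fit on only the groups compared. With 1 library left out, 4060 to 4979 genes were called, 2081 to 2529 of them higher and 1979 to 2450 lower. With the replicate number added as a replicate block the count was 5554 (2795 higher and 2759 lower). Over the tested genes, the deviations of same-numbered GFP and SpACE libraries from their group means correlated at 0.064, -0.0064 and 0.025. Whether libraries of the same number share an effect on some genes was not tested. No called gene among the 223 named changed sign under these alternatives. The fold changes of 3 genes that were not called lay on both sides of 0 with a library left out: HSPA5 (-0.01 to 0.07), CALHM1 (-0.20 to 0.02) and PLEKHM1P (-0.44 to 0.19). None of the 223 crossed the threshold with RLE scaling or the replicate block. Calls were lost for 8 named genes with DESeq2, 3 with no filter, 2 with only the groups compared and 6 to 12 with a library left out. A call was gained by CDKN1A with no filter, BAG4 with only the groups compared and GPRC5C without SpACE library 2. For the comparison of the 2 SpACE guides, with 6 genes called, the count was 68 with no filter, 11 with only the groups compared and 1 to 4 with a library left out. For SpACE against miniABEmax-V82G, with 108 called, it was 247 with no filter, 202 with the replicate block, 194 with only the groups compared and 13 to 75 with a library left out. The causes of these shifts were not tested. Among lists, the count of nuclear non-coding RNAs that fell, 4, became 16 with no filter and 12 with only the groups compared. Depth limits the genes under about 1 CPM, for which single libraries held a few counts.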

Other observations

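Transcripts that are annotated as transcribed unprocessed pseudogenes, gene copies that no longer code for a full protein, were mostly higher in SpACE than in GFP where called. Of 132 tested, 42 were called higher and 3 lower, with a median log2 fold change of 0.287. Of 12831 protein-coding genes, 2498 were called higher and 2436 lower, with a median of 0.003. Of 152 tested lincRNAs, 10 were higher and 22 lower.

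The direction of change also varied with base composition and level. In the fifth of genes with the lowest GC content, 14% were called higher and 28.1% lower (median -0.069), and in the fifth with the highest GC content 22.8% and 8.67% (median 0.093). In the fifth with the highest mean level, 17.6% were higher and 34.4% lower (median -0.075). Across genes grouped in the same way by transcript length the medians lay between -0.032 and 0.026.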
